A study of Mus musculus with 9 samples.

Results

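The 4 adult hemoglobin genes of the mouse reference strain (Hba-a1, Hba-a2, Hbb-bs and Hbb-bt) and Alas2 were measured in 9 RNA libraries, 1 per mouse, prepared by oligo-dT selection from the hippocampus of males. These 5 genes were taken by symbol from a table of 57180 genes, and all 5 had enough counts to be tested. The MAN@SKI II group was 3 BTBR T+ Itpr3tf/J mice given a nanomicelle that the labels describe as directed to the brain and as inhibiting sphingosine-1-phosphate, injected into a tail vein at 40 mg/kg daily over 7 days. The Model group was 3 vehicle-treated mice of the same inbred strain, used as a model of autism. The Con group was 3 vehicle-treated C57BL/6J mice, another inbred strain. Model and Con thus differed by strain, MAN@SKI II and Model by the nanomicelle treatment, and MAN@SKI II and Con by both. No group received an empty nanomicelle, so effects of the carrier and of the drug cannot be told apart. One label field names the vehicle as saline and another as PBS. Treatment began at 5 weeks of age, and tissue was taken at 6 weeks, after behavioural tests. The protocols do not mention whether the mice were perfused before dissection, so blood in the vessels of the tissue may have been sequenced with it.

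Hemoglobin carries oxygen in red blood cells as a tetramer of alpha chains, encoded by Hba genes on chromosome 11, and beta chains, encoded by Hbb genes on chromosome 7. Alas2, on chromosome X, encodes the erythroid form of 5-aminolevulinate synthase, which starts the synthesis of the heme that each chain holds. Mouse red cells expel their nucleus, and young ones (reticulocytes) enter the blood with globin and Alas2 RNA left over from the bone marrow, which is why these transcripts serve as markers of blood in tissue. Inbred mice differ in the haplotype of the adult beta-globin genes: C57BL/6 mice carry the single haplotype, with Hbb-bs and Hbb-bt, whereas others carry the diffuse haplotype, with Hbb-b1 and Hbb-b2. The sources used here do not give the haplotype of BTBR mice, and rows for Hbb-b1 and Hbb-b2 were not analysed here. Reads from another haplotype would be aligned to the C57BL/6 sequence.

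The 2 genes of each pair are nearly the same, which limits how far their counts can be separated. In the GENCODE M21 transcripts (GRCm38), the coding sequences of Hba-a1 and Hba-a2 are 429 bases long and differ at 1 base, C381T, counted from the first base of the start codon of Hba-a1 and read from Hba-a1 to Hba-a2. Those of Hbb-bs and Hbb-bt are 444 bases long and differ at C417T, read from Hbb-bs to Hbb-bt. The stretches around these bases, coding positions 351 to 410 for the alpha pair and 385 to 444 for the beta pair, are shown with the differing base in capitals.
Hba-a1: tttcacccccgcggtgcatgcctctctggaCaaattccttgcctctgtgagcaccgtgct
Hba-a2: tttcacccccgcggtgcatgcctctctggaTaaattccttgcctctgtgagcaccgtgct
Hbb-bs: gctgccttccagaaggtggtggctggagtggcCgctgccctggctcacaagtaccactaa
Hbb-bt: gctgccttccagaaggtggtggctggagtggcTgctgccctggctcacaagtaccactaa

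Outside the coding sequence the pairs differ more, with 82.2% identity between the 3′ untranslated regions of the alpha pair and 70.4% between those of the beta pair. Of the 150-base windows of the Hbb-bt transcript, 281 of 554 (50.7%) also occur without a mismatch in Hbb-bs, and of those of Hba-a2 266 of 405 (65.7%) also occur in Hba-a1. The sources used here name no counting program and do not say how such reads were assigned. The split within a pair is therefore uncertain, and each pair was also tested as a sum.

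The promoters of the 5 genes are shown as a description, and no link between their motifs and the RNA levels was tested. Each is the 150 bases before the annotated start, from RefSeq on GRCm38.p6, a build other than that of the deposited table. Capitals mark matches on either strand to a GATA motif (AGATAA), to the core of the CACCC box, to that of the CCAAT box and to that of the TATA box (letters TATAA), and abutting or overlapping matches form 1 run of capitals.
Hba-a1, chr11:32283522-32283671, plus strand: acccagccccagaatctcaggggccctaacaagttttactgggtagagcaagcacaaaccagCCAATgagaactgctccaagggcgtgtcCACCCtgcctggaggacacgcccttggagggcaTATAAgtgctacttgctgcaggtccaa
Hba-a2, chr11:32296342-32296491, plus strand: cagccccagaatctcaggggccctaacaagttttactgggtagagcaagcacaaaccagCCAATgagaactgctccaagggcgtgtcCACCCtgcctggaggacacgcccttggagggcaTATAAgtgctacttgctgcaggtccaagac
Hbb-bs, chr7:103827929-103828078, minus strand: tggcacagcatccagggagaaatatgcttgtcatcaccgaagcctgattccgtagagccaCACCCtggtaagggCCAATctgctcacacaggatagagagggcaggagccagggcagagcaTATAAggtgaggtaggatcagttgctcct
Hbb-bt, chr7:103813924-103814073, minus strand: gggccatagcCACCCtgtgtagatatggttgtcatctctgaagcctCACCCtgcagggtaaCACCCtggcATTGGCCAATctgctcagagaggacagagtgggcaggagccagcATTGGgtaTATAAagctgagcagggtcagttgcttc
Alas2, chrX:150547267-150547416, plus strand: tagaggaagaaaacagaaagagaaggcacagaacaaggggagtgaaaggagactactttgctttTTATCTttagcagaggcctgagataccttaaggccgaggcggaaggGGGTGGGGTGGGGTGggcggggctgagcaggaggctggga

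The alpha promoters each hold a CCAAT box, a CACCC box and a TATA box, which begins 27 bases before the start in Hba-a1 and 30 bases before it in Hba-a2, and they are 96.1% identical. The beta promoters also hold all 3 motifs but are only 73.7% identical, and Hbb-bt has 3 CACCC matches where Hbb-bs has 1. The Alas2 promoter holds 1 GATA motif and 3 abutting CACCC matches, all on the opposite strand, and no match to the CCAAT or TATA box. Among 32843 promoters of the same length, the GATA motif occurs in 5.65%, the CACCC box in 37.44%, the CCAAT box in 24.5% and the TATA box in 14.16%. Such matches are letters in a window and were not tested as binding sites.

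Library totals were 14751054 to 18827093 counts. MAN@SKI II 2 stood apart from the other 8 libraries: its share of mitochondrially encoded transcripts was 9.63%, with 6.26% to 7.15% in the rest, and it had the lowest level of Hba-a1, Hba-a2, Hbb-bs and Alas2. Values without it are given beside the results that it moves most. Levels are CPM (counts scaled to a common library size, with TMM factors), given as mean ± SD with n = 3 unless stated, and 3 counts correspond to 0.159 to 0.203 CPM of the library totals. Fold changes are on the log2 scale with SE, and adjusted p-values come from edgeR's quasi-likelihood test with Benjamini-Hochberg adjustment over 17550 genes, called under 0.05. The p-values measure the spread between these mice. In bulk tissue, fewer cells of a type and less RNA per cell cannot be told apart.

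Per kilobase of transcript, Hbb-bs had the highest level, with a mean of 45.0 CPM per kb over the 9 libraries, followed by Hba-a1 at 15.5, Hba-a2 at 12.2, Hbb-bt at 3.33 and Alas2 at 0.751 CPM per kb. In Con libraries the same order held, with Hbb-bt at 7.66 ± 1.01 CPM per kb. In MAN@SKI II libraries Hbb-bt, at 0.582 ± 0.783 CPM per kb, and Alas2, at 0.485 ± 0.314 CPM per kb, did not differ beyond their spread, and neither did Hba-a1 (11.3 ± 8.87) and Hba-a2 (9.93 ± 6.99).

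Hba-a1, which lies on chromosome 11 from 32233511 to 32234465 (GRCm39, plus strand), had 7.71, 1.84 and 14.2 CPM in MAN@SKI II libraries, 11.9, 14.8 and 14.6 CPM in Model libraries and 12.5, 11.4 and 8.31 CPM in Con libraries. The library MAN@SKI II 2 was the lowest of the 9, and the ranges of all 3 groups overlapped. Hba-a2, on the same strand from 32246489 to 32247298, had 6.15, 1.34 and 9.0 CPM in MAN@SKI II libraries, 6.17, 9.27 and 8.97 CPM in Model libraries and 8.32, 6.42 and 5.06 CPM in Con libraries. The same library was again the lowest, and the groups again overlapped.

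Hbb-bs, the major beta-globin of the single haplotype, lies on chromosome 7 from 103475741 to 103477303 (GRCm39, minus strand). It had 20.4, 7.35 and 32.2 CPM in MAN@SKI II libraries, 28.5, 39.2 and 42.3 CPM in Model libraries and 32.8, 31.4 and 20.4 CPM in Con libraries. MAN@SKI II 2 was the lowest library and Model 3 the highest, and the groups overlapped. Summed over the 4 hemoglobin genes, the level was 35.3, 10.5 and 55.6 CPM in MAN@SKI II libraries, 46.6, 66.4 and 66.5 CPM in Model libraries and 59.7, 54.7 and 38.4 CPM in Con libraries, a 6.32-fold range over the 9 mice and a 1.88-fold range over the 8 without MAN@SKI II 2. The mean of the sum was 33.8 ± 22.6 CPM in MAN@SKI II libraries (45.5 ± 14.3 CPM over the 2 libraries without MAN@SKI II 2), 59.8 ± 11.5 CPM in Model libraries and 50.9 ± 11.1 CPM in Con libraries.

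**Figure D1:**
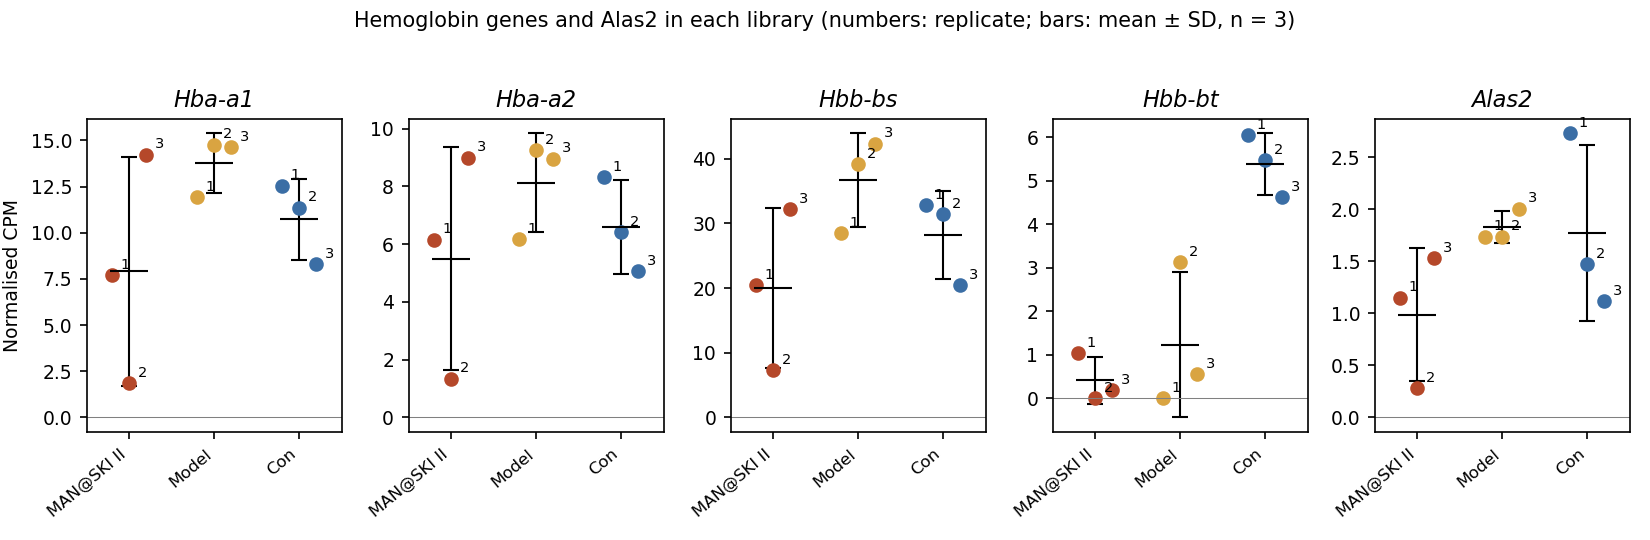
Normalised CPM of the 5 genes in each library (points, numbered by replicate), with the group mean and SD as bars (n = 3 per group). MAN@SKI II 2 is the lowest library for Hba-a1, Hba-a2, Hbb-bs and Alas2, and for Hbb-bt the 3 Con libraries, at 4.63 to 6.05 CPM, lie above all 6 BTBR libraries.

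No member was called in MAN@SKI II against Model, where 0 of 17550 genes were (0%). None of the 5 passed an unadjusted p under 0.05 either, against 846 of all genes, and DESeq2 called no member and 15 genes. The log2 fold change was -0.79 ± 0.56 for Hba-a1, -0.55 ± 0.52 for Hba-a2 and -0.87 ± 0.48 for Hbb-bs, and the adjusted p by edgeR's quasi-likelihood test was 0.914 to 0.915 for these genes. The summed pairs had -0.70 ± 0.58 for the alpha pair and -0.89 ± 0.49 for the beta pair (adjusted p = 0.914 each in edgeR). The 95% interval of the beta sum ran from -2.04 to 0.26, a fold of 0.243 to 1.20. Without MAN@SKI II 2, Hba-a1 was at -0.33, Hba-a2 at -0.11 and Hbb-bs at -0.48, and the alpha sum was at -0.24 and the beta sum at -0.50. The median over the 5 members was -0.86 (-0.45 without MAN@SKI II 2), against 0.00 over all genes tested.

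Model against Con also gave no call among the members, where 7.64% of genes were called (3.11% higher and 4.52% lower), and none passed an unadjusted p under 0.05. The log2 fold change was 0.36 ± 0.54 for Hba-a1, 0.31 ± 0.52 for Hba-a2 and 0.38 ± 0.48 for Hbb-bs (adjusted p = 0.808, 0.831 and 0.759 by edgeR's quasi-likelihood test). In MAN@SKI II against Con, 8.13% of genes were called (3.43% higher and 4.70% lower) and again no member, although Hbb-bt had an unadjusted p of 0.0167. The 2 comparisons share the Con libraries. The alpha sum was at -0.36 ± 0.58 with all libraries and at 0.10 without MAN@SKI II 2, and Hbb-bs at -0.49 ± 0.48 and -0.10. The direction of the alpha genes in this comparison rested on that library. DESeq2 called no member in either comparison with Con.

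**Figure D2:**
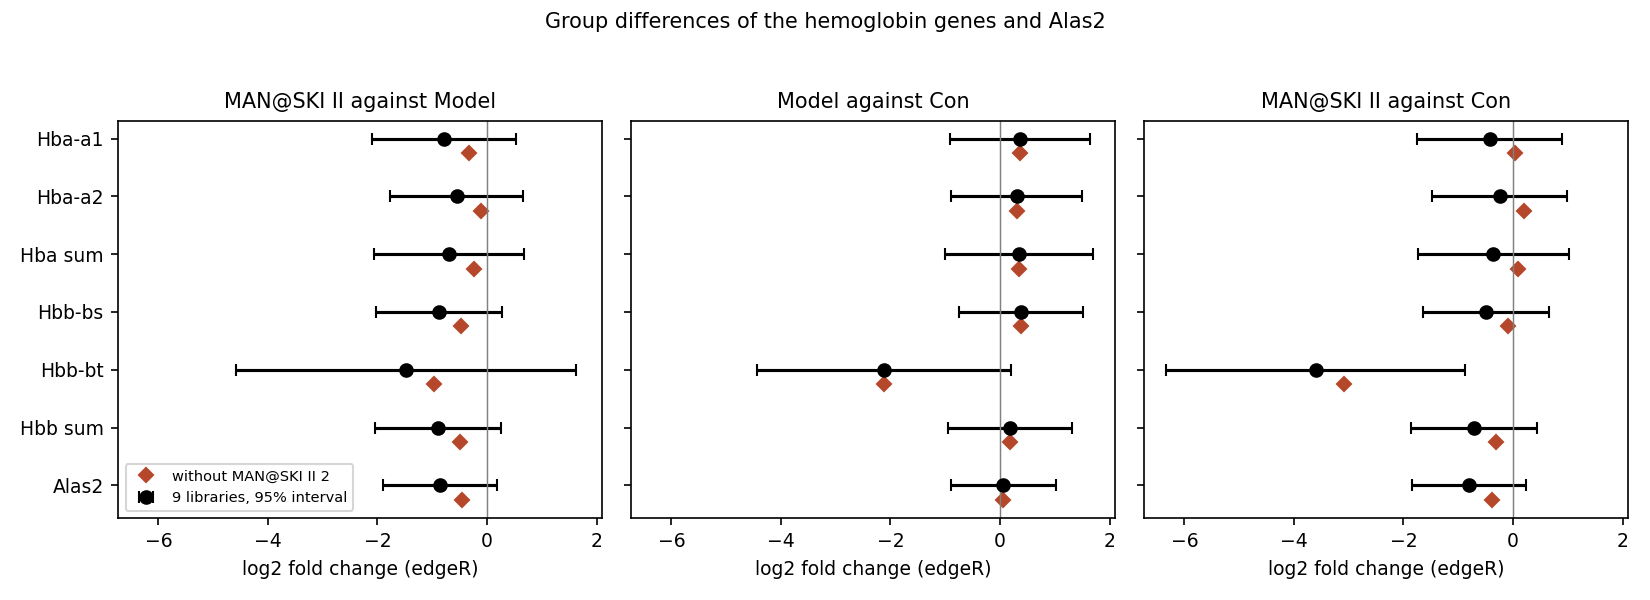
Log2 fold changes of the 5 genes and of the summed pairs from edgeR (points, with 95% intervals) in 3 comparisons, first-named group over second, with the value without MAN@SKI II 2 as a diamond. All intervals cross 0 except that of Hbb-bt in MAN@SKI II against Con, which runs from -6.33 to -0.87.

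The members varied between mice more than most genes. The SD of log2 CPM within groups was 0.88 for Hba-a1, 0.85 for Hba-a2, 0.68 for Hbb-bs, 1.67 for Hbb-bt and 0.72 for Alas2. Among genes within 1 log2 unit of the same level, 94.9% to 99.4% had a lower SD. Without MAN@SKI II 2 the SD was 0.36 for Hba-a1, 0.35 for Hba-a2, 0.37 for Hbb-bs and 0.41 for Alas2, and 67.9% to 99.4% of genes of like level had a lower SD than the member, the smallest share being that of Alas2.

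Hbb-bt, the minor beta-globin of the single haplotype, lies 3′ of Hbb-bs on the same strand of chromosome 7 (103461731 to 103463203, GRCm39). It was the member whose level did not overlap between the strains, although the share of all genes that separate the strains in this way was not counted. Its counts were 18, 0 and 3 in MAN@SKI II libraries, 0, 54 and 10 in Model libraries and 93, 93 and 87 in Con libraries. All 6 BTBR libraries were below all 3 Con libraries, and the BTBR libraries differed among themselves from 0 to 54 counts. In CPM the means were 0.409 ± 0.551 in MAN@SKI II libraries, 1.23 ± 1.67 in Model libraries and 5.38 ± 0.711 in Con libraries.

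The log2 fold change of Hbb-bt was -3.60 ± 1.16 in MAN@SKI II against Con (adjusted p = 0.122, edgeR's quasi-likelihood test) and -2.12 ± 0.99 in Model against Con (adjusted p = 0.303), so the difference did not pass the threshold. The call depended on the libraries that set the spread. Fitted on the 6 compared libraries alone, MAN@SKI II against Con gave an adjusted p of 0.0209, and without Model 2 it gave 0.0363, in edgeR. Without Model 2, Model against Con reached -4.19, with an adjusted p of 0.0560. Over the alternatives that leave out 1 library each, the adjusted p of MAN@SKI II against Con ran between 0.0363 and 0.261. Between MAN@SKI II and Model the value was -1.48 ± 1.32 (adjusted p = 0.914), -0.96 without MAN@SKI II 2 and 0.59 without Model 2.

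As a share of the beta pair, Hbb-bt does not depend on how much blood RNA a library holds. The share was 4.83%, 0% and 0.592% in MAN@SKI II libraries, 0%, 7.39% and 1.3% in Model libraries and 15.6%, 14.8% and 18.5% in Con libraries. The strains did not overlap. The exact 95% binomial intervals, which cover counting error only, ran up to 9.53% in the highest BTBR library, Model 2, and down to 12.1% in the lowest Con library. The 0 counts among 476 beta-globin counts of Model 1 allow a share of up to 0.630%, and the 0 among 104 of MAN@SKI II 2 up to 2.88%, on a limit of 3 counts, while the two-sided exact intervals reach 0.772% and 3.48%. The means were 2.35 ± 3.06% over the 6 BTBR libraries and 16.3 ± 1.94% over the 3 Con libraries, a difference of -14.0 percentage points. A two-sided exact permutation test gave p = 0.0238, the smallest that 6 against 3 libraries allow, and 0.190 after adjustment over the 8 ratio tests made. The share of MAN@SKI II libraries did not differ detectably from that of Model libraries (difference -1.09 percentage points, exact permutation p = 0.7, adjusted 0.8; -0.187 without MAN@SKI II 2).

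The BTBR libraries were not at 1 level of Hbb-bt. Model 2, with 54 of 731 beta-globin counts, had an interval of 5.60% to 9.53%, and Model 1, with 0 of 476, one of 0% to 0.772%. These intervals do not overlap, so 2 vehicle-treated mice of 1 inbred strain differed by more than counting error. Whether a BTBR haplotype gives fewer reads that align to Hbb-bt, or the mice make less of this RNA, cannot be told apart with these counts.

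**Figure D3:**
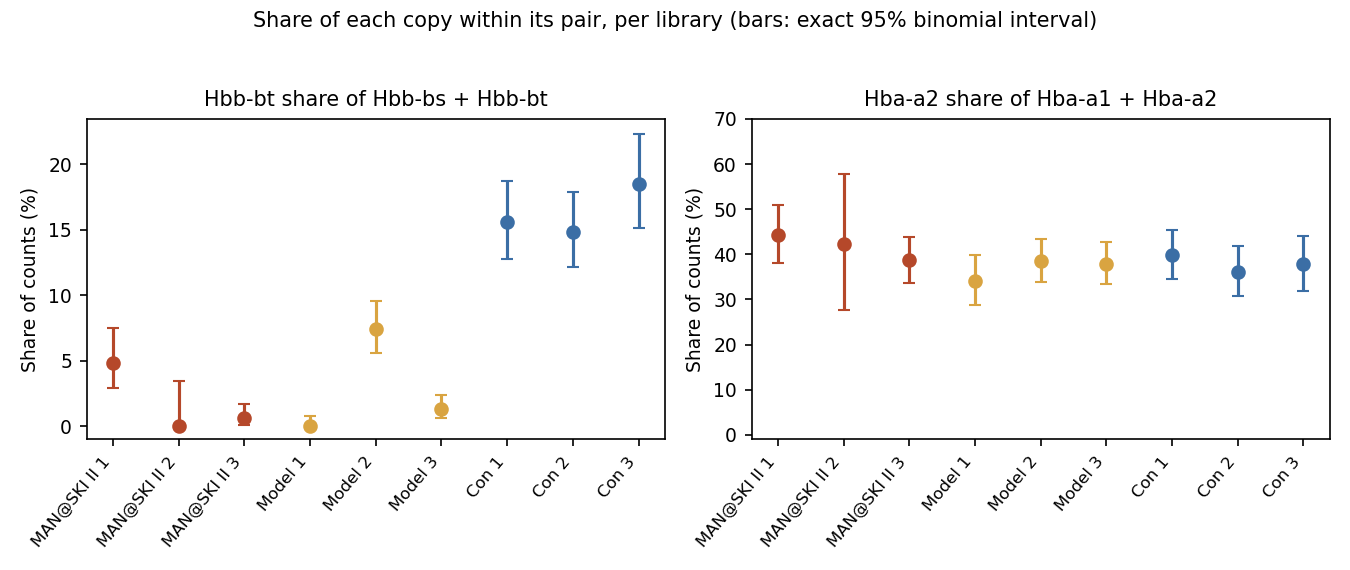
Share of Hbb-bt in the summed counts of Hbb-bs and Hbb-bt (left) and of Hba-a2 in those of Hba-a1 and Hba-a2 (right), in percent per library, with exact 95% binomial intervals. For Hbb-bt the Con libraries, at 14.8% to 18.5%, lie above all BTBR libraries, and for Hba-a2 the groups lie at 34.1% to 44.4%.

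The alpha pair was split in nearly the same way in both strains. The Hba-a2 share was 44.4%, 42.2% and 38.7% in MAN@SKI II libraries, 34.1%, 38.6% and 38.0% in Model libraries and 39.9%, 36.1% and 37.8% in Con libraries. The difference between the 6 BTBR and the 3 Con libraries was 1.39 percentage points (exact permutation p = 0.548, adjusted 0.8). MAN@SKI II libraries all lay above Model libraries, by 4.91 percentage points on average, with an exact permutation p of 0.1, the smallest that 3 against 3 allow, and 0.4 after adjustment. Their binomial intervals overlapped. The ratio of summed alpha to summed beta counts was 0.646, 0.433 and 0.718 in MAN@SKI II libraries, 0.634, 0.568 and 0.551 in Model libraries and 0.538, 0.482 and 0.534 in Con libraries. All 3 Model libraries lay above all 3 Con libraries, and MAN@SKI II libraries overlapped both. The beta sum includes Hbb-bt, which was lower in every BTBR library, so this ratio is not independent of the Hbb-bt difference. In Model against Con the log2 fold change was 0.34 ± 0.57 for the alpha sum, 0.38 ± 0.48 for Hbb-bs and 0.18 ± 0.48 for the beta sum. A ratio to Hbb-bs alone was not tested. The 6 BTBR libraries differed from Con by 0.0738 (exact permutation p = 0.286, adjusted 0.762) and MAN@SKI II from Model by 0.0146 (exact permutation p = 0.9, adjusted 0.9). Without MAN@SKI II 2, all 5 BTBR libraries lay above Con, by 0.106 on average (exact permutation test, adjusted p = 0.143), and the difference between MAN@SKI II and Model was 0.0978. Model alone differed from Con by 0.0665 (exact permutation test, adjusted p = 0.267).

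Alas2, on chromosome X from 149330371 to 149353634 (GRCm39, plus strand), had 20, 4 and 24 counts in MAN@SKI II libraries, 29, 30 and 36 in Model libraries and 42, 25 and 21 in Con libraries. Model libraries and MAN@SKI II libraries did not overlap, and Con libraries overlapped both. The share of all genes that separate these groups in the same way was not counted, so this is a description only. In CPM the means were 0.988 ± 0.640 in MAN@SKI II libraries, 1.83 ± 0.155 in Model libraries and 1.77 ± 0.847 in Con libraries. The log2 fold change was -0.86 ± 0.47 in MAN@SKI II against Model (adjusted p = 0.914, edgeR's quasi-likelihood test), -0.45 without MAN@SKI II 2, and 0.06 ± 0.44 in Model against Con (adjusted p = 0.967).

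Alas2 was also set against the hemoglobin RNA of the same library. Per 1000 counts of the 4 hemoglobin genes, Alas2 had 32.6, 26.8 and 27.6 counts in MAN@SKI II libraries, 37.3, 26.2 and 30.2 in Model libraries and 45.8, 26.9 and 29.1 in Con libraries. The highest, Con 1, and the lowest, Model 2, differed by less than 2-fold. The hemoglobin level itself ranged 6.32-fold with MAN@SKI II 2 and 1.88-fold without it, so the wider range rests on that library and its 4 Alas2 counts. The groups overlapped, with differences of -2.21 between MAN@SKI II and Model (exact permutation p = 0.7, adjusted 0.8) and -3.83 between BTBR and Con (exact permutation p = 0.476, adjusted 0.8). As Alas2 and hemoglobin share each library's scaling, the relation is a description over 9 libraries.

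**Figure D4:**
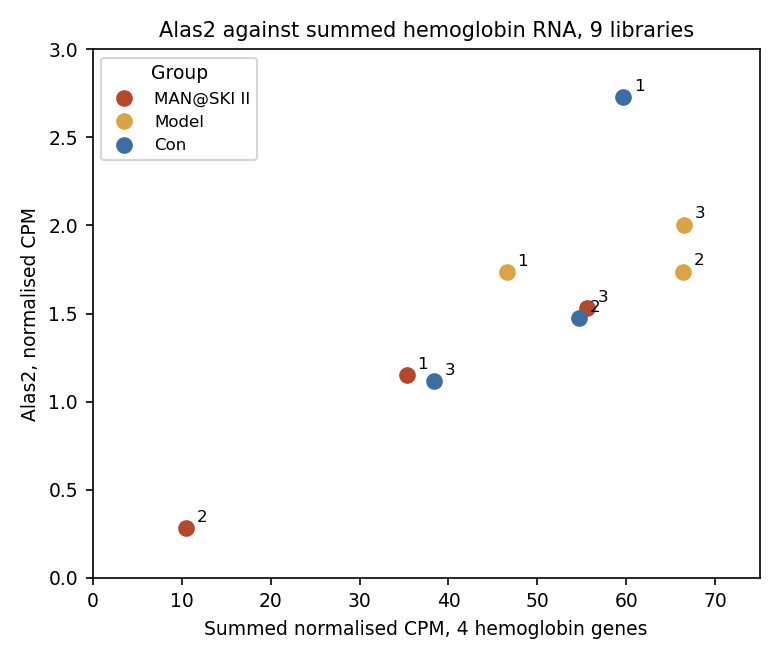
Alas2 against the summed level of the 4 hemoglobin genes, both in normalised CPM, for the 9 libraries (points, numbered by replicate within their group). MAN@SKI II 2 has 10.5 CPM of hemoglobin RNA and 0.283 CPM of Alas2, and Con 1 has the highest Alas2 level at 2.73 CPM.

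Several genes specific to red cells were at or near 0, and 10 of 25 genes of the red cell membrane and maturation list never passed 3 counts. Hba-x, Hbb-y and Hbb-bh1, the globins of embryonic red cells, had 0 counts in all 9 libraries. Ahsp, the chaperone of free alpha chains, had 1 count in all libraries together, and Slc4a1 (the red cell anion exchanger) and Car1 (carbonic anhydrase 1) had at most 3 counts in any library. Gata1, the master regulator of red cell genes, was at 0 in all but 1 library, which had 3 counts, and Klf1, another erythroid regulator, had 0 to 9 counts. Of the red cell membrane and maturation list 12 were tested, and 1, Sptb, was called, higher than in Con in both BTBR groups. This is near the share over all genes, 7.64% in Model against Con and 8.13% in MAN@SKI II against Con. Sptb, a spectrin also expressed in neurons, averaged 371 ± 7.19 CPM in MAN@SKI II, 364 ± 7.93 CPM in Model and 311 ± 9.56 CPM in Con libraries. Its log2 fold change was 0.26 in MAN@SKI II against Con and 0.23 in Model against Con (adjusted p = 0.0121 and 0.0227 by edgeR's quasi-likelihood test). Bpgm, which makes the bisphosphoglycerate that lowers the oxygen affinity of hemoglobin, was at 54.2 ± 4.97 CPM in MAN@SKI II, 55.7 ± 2.91 CPM in Model and 56.9 ± 4.66 CPM in Con libraries. Of 12 erythroid regulators 7 were tested and 0 called by edgeR, with 0, 0 and 1 at an unadjusted p under 0.05. Median log2 fold changes of the membrane and maturation list were 0.05 in MAN@SKI II against Model, 0.09 in Model against Con and 0.13 in MAN@SKI II against Con.

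Of 4 globins that are not of red cells, 3 were tested and 0 called. Cygb (cytoglobin) averaged 72.5 ± 2.28 CPM in MAN@SKI II, 72.4 ± 1.96 CPM in Model and 66.1 ± 1.36 CPM in Con libraries, and Ngb (neuroglobin) was likewise similar between MAN@SKI II and Model, at 4.08 ± 0.739 and 4.06 ± 0.935 CPM, with 3.57 ± 0.799 CPM in Con. Adgb (androglobin) had 11, 8 and 8 counts in MAN@SKI II libraries, 3, 12 and 9 in Model libraries and 22, 18 and 22 in Con libraries. All BTBR libraries were thus below all Con libraries, but the share of all genes that separate the strains in this way was not counted. The log2 fold change of Adgb was -1.08 ± 0.39 in MAN@SKI II against Con and -1.39 ± 0.39 in Model against Con (adjusted p = 0.126 and 0.0574 by edgeR's quasi-likelihood test).

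The rest of heme synthesis, which all cells carry out, showed no call among 13 genes tested in any comparison by edgeR's quasi-likelihood test, with 1, 2 and 3 genes at an unadjusted p under 0.05 in MAN@SKI II against Model, Model against Con and MAN@SKI II against Con. Alas1, the form of the enzyme used outside red cells, averaged 53.6 ± 2.70 CPM in MAN@SKI II, 50.7 ± 2.41 CPM in Model and 45.0 ± 0.961 CPM in Con libraries, with an adjusted p of 0.0554 in MAN@SKI II against Con in edgeR. Fech, which inserts iron into heme, was at 56.4 ± 7.38 CPM in MAN@SKI II, 48.3 ± 4.04 CPM in Model and 46.6 ± 0.634 CPM in Con libraries.

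In the list of heme breakdown and iron handling, 17 of 20 genes were tested, with 0 called between MAN@SKI II and Model, and 1 higher and 2 lower in each comparison with Con. Tfrc, the transferrin receptor that brings iron into cells, was higher in Model than in Con, at 239 ± 18.6 and 153 ± 4.16 CPM, by 0.65 ± 0.09 (adjusted p = 0.00126 by edgeR's quasi-likelihood test). Trf (transferrin, the carrier of iron) and Slc11a2, an iron importer, were lower in Model than in Con, with log2 fold changes of -0.67 and -0.50, and lower in MAN@SKI II than in Con, with -0.57 and -0.65. Blvrb, a biliverdin reductase of heme breakdown, was higher in MAN@SKI II than in Con, at 7.78 ± 1.42 and 4.17 ± 1.25 CPM (adjusted p = 0.0295 in edgeR). In Model it was at a similar level to MAN@SKI II, 7.22 ± 0.679 CPM, with a log2 fold change of 0.80 against Con (adjusted p = 0.0532 in edgeR). The difference was thus not particular to MAN@SKI II. Hmox1, the inducible heme oxygenase, was not called, at 4.47 ± 0.953 CPM in MAN@SKI II, 4.31 ± 0.780 CPM in Model and 4.68 ± 0.925 CPM in Con libraries. In MAN@SKI II, Tfrc was at 187 ± 24.3 CPM and was not called against either group, with adjusted p = 0.914 against Model and 0.0789 against Con in edgeR.

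Markers of white cells and platelets were sparse. Of 11 platelet genes 2 were tested, of 15 neutrophil and monocyte genes 2 and of 15 lymphocyte genes 2, and none of the platelet or lymphocyte genes was called. Csf3r, which brain microglia also express, was lower in both BTBR groups than in Con. The summed platelet level was 4.37 to 5.36 CPM in MAN@SKI II, 4.07 to 4.57 CPM in Model and 3.57 to 5.13 CPM in Con libraries, and MAN@SKI II 2 was not the lowest in it. Pf4, a platelet chemokine, had at most 8 counts in a library, and Cd79b, a B cell receptor subunit, at most 2. Brain endothelial genes, markers of the vessel wall, summed to 399 to 445 CPM in MAN@SKI II, 450 to 482 CPM in Model and 492 to 515 CPM in Con libraries. These ranges do not overlap, but the sums were not tested, and 0 of 15 endothelial genes were called in MAN@SKI II against Model. How many lists or genes separate the 3 groups in this way was not counted, so this is a description only. Cldn5, a tight junction protein of brain vessels, was at 28.4, 14.7 and 35.2 CPM in MAN@SKI II libraries, and at 14.7 CPM in MAN@SKI II 2 it was the lowest of the 9. Over all genes, 7.64% were called in Model against Con and 8.13% in MAN@SKI II against Con. Of 15 endothelial genes 1 was called, Slco1a4, lower in MAN@SKI II than in Con, with a log2 fold change of -0.50. In Model against Con Slco1a4 was at -0.43 (adjusted p = 0.0520 in edgeR), so the lower level was not particular to MAN@SKI II. Of 10 mural cell genes 1 was higher (Abcc9) and 1 lower (Rgs5) in both comparisons with Con. The part of vessel content or of blood in the member levels was not tested. Of 15 choroid plexus genes 8 were lower in each comparison with Con, where 4.52% (Model) and 4.70% (MAN@SKI II) of all genes were called lower. The sum of the 15 was 151 to 482 CPM in MAN@SKI II, 129 to 466 CPM in Model and 1200 to 3222 CPM in Con libraries. Ttr, the main choroid plexus transcript, was at 116 ± 170 CPM in MAN@SKI II, 94.5 ± 141 CPM in Model and 1437 ± 720 CPM in Con libraries and was not called. The hemoglobin sums of Con libraries lay within the range of BTBR libraries, while these choroid plexus sums did not overlap between the strains. How many lists or genes separate the strains in this way was not counted. Of 10 hippocampal neuron genes only C1ql2 was called, lower in both BTBR groups than in Con.

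The genes with profiles most like the mean profile of the 5 members over the 9 libraries, by root mean square difference of centred log2 CPM among 17545 genes, were Rassf10 (0.279), Gm12537 (0.341), Smad6 (0.346), Omd (0.350), Gm5526 (0.364) and Cwh43 (0.405). A flat profile differed from the members by 0.898. All 6 had their lowest value in MAN@SKI II 2, as the mean profile did. That profile was at -2.24 in MAN@SKI II 2 and at -0.467 to 0.933 in the other libraries. The shared low value thus follows largely from how the genes were picked, and it rests on 0 (Omd) to 17 (Gm5526) counts.

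Genes within 1000000 bases of the members on GRCm39, a window chosen with the data in view, were set beside them. Around the beta-globin pair, 9 genes were tested and 3 of them (33.3%) were called in both comparisons with Con, against 7.64% and 8.13% of all genes, a share that rests on few genes. Trim12a had 0 counts in all 6 BTBR libraries and 43, 44 and 44 counts in Con libraries, a level at least 12.2-fold lower on a floor of 3 counts per library. Trim30d had 0 to 2 counts in the BTBR libraries and 24 to 33 in Con libraries, and Trim34b, which was higher in BTBR, had 12 to 18 counts in the BTBR libraries and 0 or 1 in Con libraries. These Trim genes are close relatives of others in the same cluster, so that counts of single members are uncertain. Around the alpha-globin pair 2 of 19 genes were called in Model against Con and 3 of 19 in MAN@SKI II against Con, and around Alas2 0 of 16 were. Nprl3, the neighbour whose introns hold the enhancers of the alpha-globin genes, was not called, at 29.6 ± 2.80 CPM in MAN@SKI II, 31.5 ± 3.88 CPM in Model and 26.1 ± 1.66 CPM in Con libraries. Of 13 listed neighbours of the globin clusters 10 were tested and 0 called by edgeR, with 1, 2 and 3 at an unadjusted p under 0.05.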

How the data were processed

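Poly(A) RNA of 9 hippocampi had been sequenced as paired-end reads of 150 bases, per the labels' protocols. The authors deposited raw counts per gene, whole numbers without normalization per the file headers, and FPKM. The gene length implied by FPKM was taken as the median over libraries, for genes with at least 20 counts in a library. GRCm39, Bowtie2, edgeR 3.2.0, HISAT2 2.0.4 and StringTie 1.3.3b are listed, without roles, per the submitters' processing notes. The sources used here name no counting program, annotation release or strand setting.

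Counts were tested with edgeR 4.0.16 in R 4.3.3 (filterByExpr, TMM, robust quasi-likelihood fit on all 9 libraries, group as the only term), after the procedure was tested on simulated data. The summed pairs were fitted in place of the single genes, and 4 within-library ratios were compared by exact permutation tests in Python 3.11.15 (scipy 1.17.1), with Benjamini-Hochberg adjustment over 8 tests. Columns were assigned by library name, and 0 columns belonged to other samples. Named genes were the 5 members, called members of 15 lists (up to 3 per direction), 24 further genes of those lists (some not reported here) and the 6 nearest profiles. The members and lists were chosen with earlier results of these data known. Libraries within a group differed beyond sampling noise, so each counted as 1 sample. Sequences came from GENCODE M21 and RefSeq (GRCm38.p6). The alternatives were RLE factors, no factors, no filter, DESeq2 1.42.0, the 6 compared libraries alone, a replicate block, each library left out, hemoglobin rows kept out of the library totals and, for ratios, FPKM or 1 BTBR group alone.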

Additional observations from a re-analysis of the deposited data

Results flagged for a closer look

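Among the 6 BTBR libraries, the Hbb-bt level of Model 2 (3.13 CPM) stood apart from the others, which lay at 0 to 1.04 CPM. The gap between Model 2 and the next library was 0.669 of the whole range, above Dixon's critical value for 6 samples at the 95% level. Chance alone gives such a gap in about 1 in 20 groups of normally distributed values from 1 population. The values here come from both MAN@SKI II and Model libraries and include counts of 0, so that rate need not hold. Without Model 2, the mean Hbb-bt share of the beta pair in BTBR libraries differed from that in Con by -15.0 percentage points, against -14.0 with it.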

How the results depend on the processing

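No member was called under any alternative, except Hbb-bt in MAN@SKI II against Con with the 6 compared libraries alone (-3.60, adjusted p = 0.0209 in edgeR) and without Model 2 (-3.60, adjusted p = 0.0363). In MAN@SKI II against Model, Hbb-bt was filtered out with the 6 compared libraries alone and gave no value. Signs turned for values not called: Hbb-bt in MAN@SKI II against Model (0.59 without Model 2), Hba-a1, Hba-a2 and the alpha sum in MAN@SKI II against Con (0.031, 0.20 and 0.10 without MAN@SKI II 2), and Alas2 in Model against Con (-0.014 without Model 3, -0.05 without Con 2, -0.19 without Con 3). With 1 library left out, MAN@SKI II against Con ran between -1.0 and 0.10 for the alpha sum, -1.13 and 0.031 for Hba-a1 and -0.77 and 0.20 for Hba-a2, Hbb-bt in MAN@SKI II against Model between -3.52 and 0.59, and Alas2 in Model against Con between -0.19 and 0.50. The Hba-a2 share of Model alone against Con differed by -1.06 percentage points. With 1 library left out, MAN@SKI II against Model ran between -0.0449 and 0.0978 for the alpha over beta ratio, -4.72 and 0.827 for Alas2 per 1000 and -2.60 and 1.16 percentage points for the Hbb-bt share, and BTBR against Con between -7.34 and 2.08 for Alas2 per 1000. From FPKM the Hbb-bt share was 25.5% to 30.8% in Con libraries, against 14.8% to 18.5% from counts. Genes called in MAN@SKI II against Model were 1 with no factors, 1 with no filter, 15 with DESeq2, 1 with the replicate block, 1 with the 6 compared libraries alone and 0 to 9 with 1 library left out. In Model against Con they were 2073 with the 6 compared libraries alone and 830 to 2226 with 1 library left out, and in MAN@SKI II against Con 857 to 1633. The cause of these shifts was not tested. Libraries with the same replicate number in their titles correlated at -0.0639 to 0.0525, and differently numbered ones at -0.0638 to 0.087. These values give no sign that the numbers pair the mice, but they cannot exclude it. With the replicate block, Hbb-bt in MAN@SKI II against Con was -3.62 (adjusted p = 0.224 in edgeR), and no member was called.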

Other observations

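Some transcripts of white blood cells had counts in BTBR libraries and few or none in Con libraries. They are single members of longer lists whose sums overlapped between the strains. The neutrophil and monocyte sum was 6.3 to 8.4 CPM in MAN@SKI II, 7.4 to 8.3 CPM in Model and 8.0 to 9.0 CPM in Con libraries. Csf3r of that list was lower in both BTBR groups than in Con and held much of this sum. It had 76 of 146, 65 of 115 and 66 of 98 counts in MAN@SKI II libraries. In Model libraries it had 67 of 123, 80 of 127 and 86 of 149. In Con libraries it had 96 of 123, 118 of 153 and 122 of 153. The overlap of this sum therefore says little about the other genes of that list, and a sum without Csf3r was not compared. The lymphocyte sum, which includes Igkc, was 8.4 to 13.1, 8.6 to 17.8 and 7.7 to 9.3 CPM in the same order. S100a9, a calprotectin subunit of neutrophils, had 16, 4 and 0 counts in MAN@SKI II libraries, 2, 4 and 9 in Model libraries and 0 in all 3 Con libraries. S100a8, its partner, had 1, 5 and 0 counts in MAN@SKI II libraries, 3, 3 and 9 in Model libraries and 0 in all Con libraries. Igkc, an immunoglobulin light chain constant region gene made by B lineage cells, had 51, 82 and 6 counts in MAN@SKI II libraries, 33, 93 and 14 in Model libraries and 0, 1 and 8 in Con libraries. Its log2 fold change was 4.05 ± 1.39 in MAN@SKI II against Con and 3.90 ± 1.40 in Model against Con (adjusted p = 0.142 and 0.171 by edgeR's quasi-likelihood test). MAN@SKI II 2, the library with the least hemoglobin RNA, was among the highest for Igkc.

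The deposited FPKM values of Hba-a1, Hba-a2, Hbb-bs and Alas2 rest on lengths that exceed a single transcript. The length implied for Hba-a1 was 1193 bases, which equals the sum of its 2 annotated transcripts in GENCODE M21, whereas the longest is 699 bases. For Hbb-bs it was 1379 bases, the sum of 3 transcripts, and for Hbb-bt 703 bases, its single transcript. FPKM therefore divides Hbb-bs by a longer length than Hbb-bt. For Alas2 the implied length was 3196 bases, which equals neither its longest transcript (2037 bases) nor the sum of its 4 transcripts (4983 bases). Across 13354 genes with several transcripts in that annotation, the implied length equalled the summed transcripts, within 1 base, for 1043 (7.8%) and the longest transcript for 48 (0.4%). That annotation is of another build than the deposited table.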
